A study of Drosophila melanogaster with 4 samples.

Results

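Cells with the gene set of uncommitted somatic mesoderm were studied in a droplet single-cell RNA survey of whole Drosophila melanogaster embryos. A barcode was chosen when it had at least 1500 UMIs (unique molecular identifiers, each counting 1 captured transcript), at most 25% of its UMIs in mitochondrially encoded genes, a UMI of at least 3 of Him, twi, htl, meso18E and zfh1, together at least 0.1% of its UMIs, and no UMI of bin, sns and Mlp60A. This rule chose 1768 of the 93931 barcodes that passed the depth and mitochondrial limits, among 109582 in all. The embryos were of the OregonR strain, untreated, and collected in a stage 10-12 window and a stage 13-16 window with 2 replicate libraries each. Embryos of each window were laid over several hours, so that each library mixed neighbouring stages, and the embryos of stage 10-12 were aged at a lower temperature than those of stage 13-16, so that stage and temperature cannot be told apart. From pseudotime, the paper proposes that stage 13-16 replicate 1 was richer in later embryos of its window and replicate 2 in earlier ones. Age and other replicate differences cannot be told apart in these 2 libraries. The library was the replicate (n = 2 per stage) and cells were not.

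The somatic mesoderm of the fly arises from cells that express twi, a basic helix-loop-helix activator needed to form the mesoderm. The FGF receptor encoded by htl acts in the spreading of these cells, the zinc finger and homeodomain protein encoded by zfh1 acts in several mesodermal and neural lineages, and Him holds back Mef2, the activator of muscle differentiation genes. Notch signaling separates founder cells, which carry the identity of a single muscle, from fusion-competent myoblasts, and a few twi-positive cells are set aside with active Notch as precursors of the adult muscles. The genes excluded by the rule mark neighbouring fates, since bin is a regulator of visceral mesoderm, sns encodes the adhesion receptor of fusion-competent myoblasts and Mlp60A encodes a protein of differentiated muscle.

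The rule's genes were seen in unequal shares of the chosen cells. As these genes chose the cells, the shares do not test the label. Him was detected in 91.6%, 93.8%, 91.3% and 88.2% of the chosen cells in stage 10-12 replicates 1 and 2 and stage 13-16 replicates 1 and 2, the order used for all series of 4 values here. For twi, the defining gene of early mesoderm, the share was 39.9%, 37.7%, 22.2% and 24.1%. In barcodes with at least 3 neuron markers, which should lack twi, it was 4.40%, 9.09%, 4.02% and 5.27% at median depths of 6512, 17313, 6876 and 6953 UMIs, against 15929, 4256, 6774 and 11194 UMIs in the chosen cells. These barcodes numbered 159, 11, 672 and 2769 and held no chosen cell by construction, so that the rule favoured a lower share in them. When every cell was thinned to 1500 UMIs, twi remained in 17.2%, 20.5%, 11.3% and 10.5% of the chosen cells and 2.52%, 0%, 0.744% and 1.34% of the neuron-marker barcodes. The most frequent combination was Him, meso18E and zfh1 alone, without twi or htl, in 753 cells (42.6%). All 5 genes were seen together in 212 cells (12.0%). A group of cells chosen in this way may thus hold any cell type that expresses 3 of the 5 genes, and in what follows its members are called the chosen cells.

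The 5 genes chose the cells, so their levels are given as a description. Him stood at 811, 840.2, 1396 and 766 CPM (CPM, UMIs of the gene per 1000000 UMIs of the set) in the chosen cells and 115, 143, 171 and 73.4 CPM in all other passing barcodes. For zfh1 the levels were 847, 899, 929 and 1382 CPM, and in the neuron-marker barcodes 730.1, 129, 516 and 599 CPM, where zfh1 was thus high in 3 of the 4 libraries. The value of 129 CPM, in stage 10-12 replicate 2, rests on 11 barcodes. The level of twi was 129, 73.6, 55.5 and 74.8 CPM and that of htl 102, 72.5, 62.4 and 86.5 CPM, each lower at stage 13-16 replicate 1 than in the other libraries. The mesodermal gene meso18E was at 336, 296, 197 and 217 CPM in the chosen cells, below the 398, 360.4, 281 and 326 CPM of cells with the gene set of fusion-competent myoblasts. Near the limits of the rule, 67, 39, 65 and 76 chosen cells had a summed share of the 5 genes of 0.1 to 0.12%, and 76, 35, 67 and 112 barcodes missed the rule only with a share of 0.08 to 0.1%. A UMI of bin, sns or Mlp60A alone kept out 817, 253, 748 and 1759 barcodes, more than were chosen in 3 of the 4 libraries.

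The chosen cells made up a larger share of the passing barcodes in the stage 10-12 libraries. There were 609 of 17876 (3.41%, 95% Clopper-Pearson interval 3.15 to 3.68) and 273 of 10358 (2.64%, 2.34 to 2.96) in the stage 10-12 replicates. At stage 13-16 there were 379 of 30059 (1.26%, 1.14 to 1.39) and 507 of 35638 (1.42%, 1.30 to 1.55). The means were 3.02% ± 0.545 (SD, n = 2) and 1.34% ± 0.114 (SD, n = 2), and the groups did not overlap. With 2 libraries against 2, no exact test can pass a threshold of 0.05, so none was made. After thinning each barcode to 1500 UMIs the shares were 1.52%, 1.30%, 0.595% and 0.932%, which still did not overlap. A UMI of bin, sns or Mlp60A alone had kept out 817, 253, 748 and 1759 barcodes. With those barcodes counted in, the shares of the stages would overlap. The difference between the stages thus belongs to the rule with its exclusions. Intervals here cover counting error only. The chosen cells were deeper than the passing barcodes, whose median was 3352, 2363, 2849 and 5242 UMIs. Their depth was also uneven, with quartiles of 2395 and 28727 UMIs in stage 10-12 replicate 2. Only 1 barcode sequence was shared by the chosen cells of the stage 10-12 libraries and 1 by those of the stage 13-16 libraries.

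**Figure D1:**
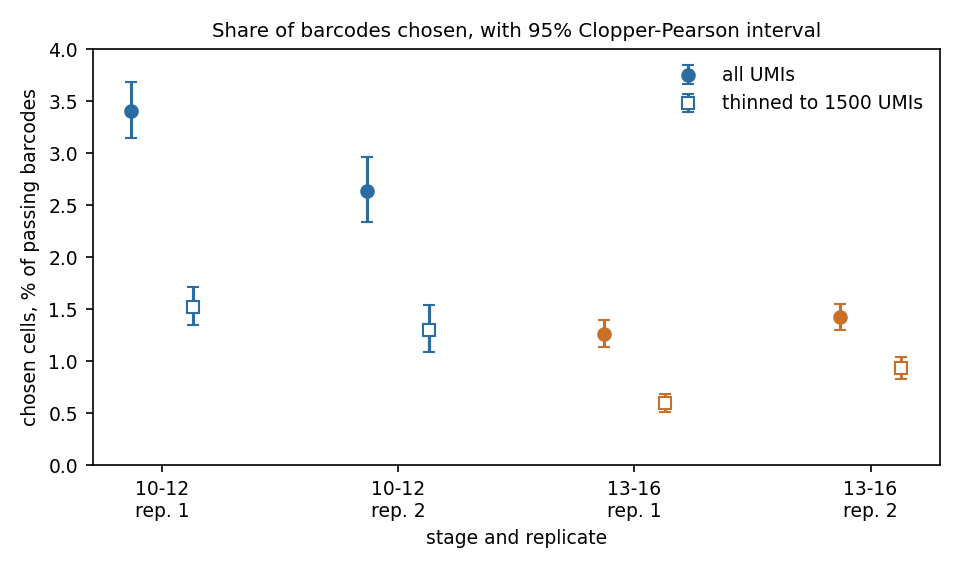
Share of passing barcodes that met the rule (y axis, percent) in each of the 4 libraries (x axis), with all UMIs (filled circles) and after thinning each barcode to 1500 UMIs (open squares). Bars are 95% Clopper-Pearson intervals, which cover counting error only. The stage 10-12 libraries sit at 3.41% and 2.64%, above the stage 13-16 libraries at 1.26% and 1.42%, and thinning lowers all 4.

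To see what the chosen cells were, they were divided by genes that mark single lineages. A gene was counted as rich in a cell with at least 2 UMIs and at least 200 CPM, and each cell was placed once, in the order in which the divisions are named here. These divisions were made after the values had been seen and are a description. The srp-rich cells without matrix genes were the largest division marked by a gene of another lineage, with 171, 53, 97 and 153 cells (28.1%, 19.4%, 25.6% and 30.2%), and 26.8% of the chosen cells over the 4 libraries. Cells placed by twi without rich E(spl)m6-BFM were 32.8% of the chosen cells joined over the stage 10-12 libraries and 12.1% of those joined over the stage 13-16 libraries, and cells with both were 1.81% and 8.01%.

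The first 4 divisions were each marked by a gene known from a lineage other than the somatic mesoderm. Whether their barcodes mix cell types was not tested. The HLH54F-rich cells numbered 21, 5, 2 and 11, and had HLH54F at 2059.8 CPM over the joined libraries, with Mef2 at 967 CPM, ct at 912 CPM and Abd-B at 624 CPM. HLH54F is known from the caudal visceral mesoderm, the source of the longitudinal gut muscles, and these cells came mostly from stage 10-12. The repo-rich cells, 12, 4, 13 and 31 in number, had repo at 748 CPM and gcm at 1014 CPM, a pair of regulators of glia, while meso18E was at 45.6 CPM and Him at 102 CPM. The Hand-rich cells, 12, 6, 24 and 35, had Hand at 1207 CPM, odd at 294 CPM and tin at 183 CPM, regulators known from the heart and the pericardial cells, together with Him at 2184 CPM. The 16, 6, 8 and 23 srp-rich cells with matrix genes (Ppn, Col4a1 and Pxn together at 1000 CPM or more) had Ppn at 4961 CPM and Col4a1 at 2294 CPM, gene products of hemocytes, and Him at 79.3 CPM.

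The remaining srp-rich cells lacked the matrix genes but kept Him at 963 CPM and zfh1 at 910.1 CPM, with htl at 12.8 CPM. The GATA factor gene srp was at 574 CPM, the nuclear receptor gene svp at 609 CPM and CG6910 at 197 CPM. Both srp and svp are known from the developing fat body. The 5 listed fat body markers summed to 489, 361, 1037 and 664 CPM over all chosen cells. In the other barcodes they summed to 195, 114, 846 and 566 CPM. Among them, apolpp in the chosen cells was at 0.604, 0.239, 0.798 and 0.584 times its level in the other barcodes. FASN1 was also lower where a ratio could be formed, and CG32369 was lower at stage 10-12 only. Whether the srp-rich cells are fat body was not tested. The genes that set these cells apart in all 4 libraries, by the lowest of the 4 ratios to the other chosen cells, were bgm, at 6.93 to 22.0 times, CG16758, CG6415, CG6910 and Obp99c. They were also the deepest of the 3 largest divisions in all 4 libraries, at medians of 18884, 33820, 22029 and 13547 UMIs.

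The twi-positive cells with rich E(spl)m6-BFM, 12, 4, 34 and 37 in number, were the smaller of the twi-positive divisions and had the highest Him (2448 CPM), zfh1 (3187 CPM) and twi (543 CPM) of all 8 divisions. E(spl)m6-BFM, a Notch target gene known from adult muscle precursors, was at 2764 CPM. The homeobox gene ct was at 917 CPM, Pax, which encodes the adhesion protein paxillin, at 474 CPM and the identity gene slou at 111 CPM. Their share was 1.97%, 1.47%, 8.97% and 7.30% of the chosen cells. Apart from the genes that made the division, CG15529, mab-21, sens-2 and fng, which modifies Notch, led the genes that set them apart in the 3 libraries with at least 10 such cells, mab-21 at 7.78 to 16.7 times the other chosen cells.

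The other twi-positive cells, 199, 90, 41 and 66, made up 32.7%, 32.97%, 10.8% and 13.02% of the chosen cells. They had twi at 309.9 CPM, Delta (Dl), a Notch ligand, at 1245 CPM, Mef2 at 380.5 CPM and lmd, a regulator of fusion-competent myoblasts, at 313 CPM. The myogenic factor gene nau was at 62.8 CPM and Poxm, a Pax-family regulator of somatic muscle, at 88.03 CPM. In all 4 libraries lmd was 3.85 to 8.05 times, nau 2.95 to 22.4 times and Dl 2.41 to 3.52 times the level of the other chosen cells. The gene aos, which encodes an inhibitor of the EGF receptor, was among the leading genes too, at a lowest ratio of 2.51. The last division, 166, 105, 160 and 151 cells without twi or a rich lineage gene, held Him at 817 CPM, Six4 at 113 CPM and Mef2 at 240.4 CPM. CG9184, scrt and pnr led its genes, at a lowest ratio of 2.76, 2.21 and 2.11. Both scrt and fne are known from neurons, and fne was at 98.03, 101, 204 and 1039 CPM in this division against 36.6, 16.5, 111 and 304 CPM in the other chosen cells. These cells stay in the reduced set used in the tests, and the part of neuronal RNA in them was not tested. These cells were the shallowest of the 3 largest divisions in all 4 libraries, with medians of 5018.5, 2780, 3216.5 and 4110 UMIs, so that an unseen twi UMI and absent twi expression cannot be told apart in them.

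**Figure D2:**
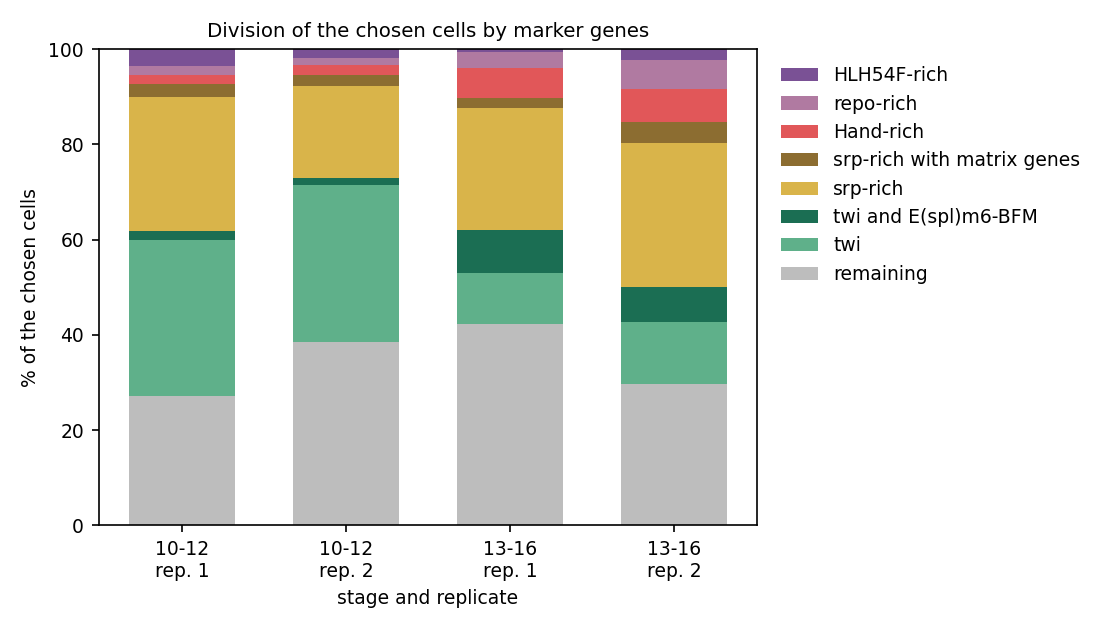
Division of the chosen cells (y axis, percent of the chosen cells of a library) in the 4 libraries (x axis); each color is a division named by its genes, and each cell is counted once. The twi division takes 32.7% and 33.0% of the stage 10-12 cells against 10.8% and 13.0% at stage 13-16, and the twi and E(spl)m6-BFM division 1.97% and 1.47% against 8.97% and 7.30%.

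**Figure D3:**
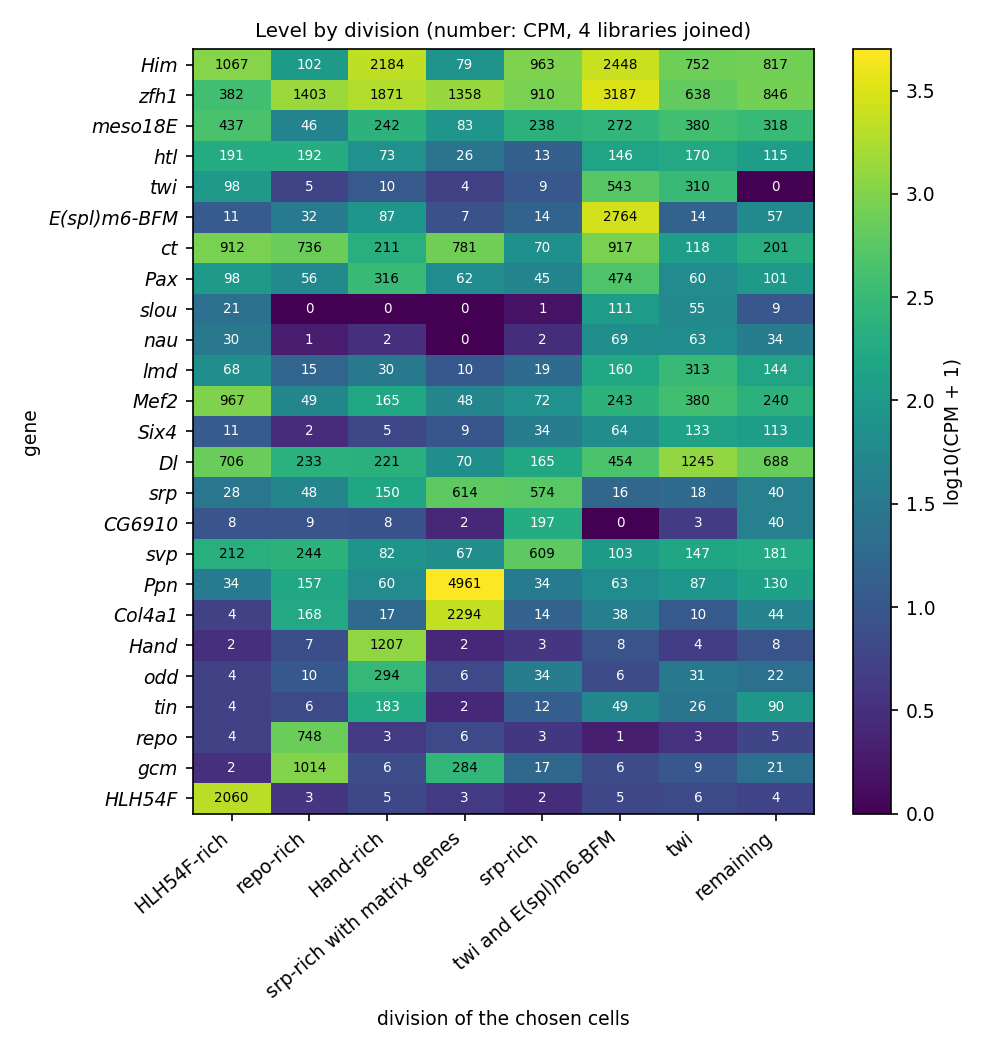
Level of 25 genes (rows) in the 8 divisions (columns), with the 4 libraries joined; color is log10(CPM + 1) and the printed number is the CPM. Him is at 2448 CPM in the twi and E(spl)m6-BFM division and 2184 CPM in the Hand-rich one, but at 102 CPM in the repo-rich one, and each lineage gene that made a division is high on its own column by construction.

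Markers of other cell types were counted in the chosen cells beside these divisions. At least 2 markers of the neuron, epithelium or plasmatocyte lists of 5 genes each were seen in 65.4%, 47.3%, 62.3% and 89.9% of them. By list, these shares were 19.4%, 11.4%, 24.3% and 63.7% for neurons, 43.7%, 31.5%, 36.7% and 64.1% for epithelia and 28.1%, 21.2%, 35.1% and 41.8% for plasmatocytes, macrophage-like blood cells. In cells with the gene set of fusion-competent myoblasts, the shares were 51.6%, 42.0%, 53.6% and 83.4% for any of the 3 lists. For plasmatocytes alone they were 12.6%, 14.2%, 14.6% and 24.4% there. Summed over the list, plasmatocyte markers were at 570.3, 546, 932 and 1452 CPM in the chosen cells and 249, 145, 503 and 531 CPM in the other barcodes. Of the sum in the chosen cells, srp alone gave 284, 279, 254 and 298 CPM. It is also on the fat body list and counts in both. Neuron markers were at 247, 142, 289 and 821 CPM against 685, 412, 745 and 1151 CPM. No marker of the plasmatocyte or neuron list was at 0 in the chosen cells of any library. Glia markers summed to 314, 300.4, 245 and 577 CPM. Barcodes that hold more than 1 cell were not called, and each test was repeated without the cells that held at least 2 of these markers, and separately without the HLH54F-, repo-, Hand- and srp-rich cells. The latter repeats kept 61.9%, 72.9%, 62.0% and 50.1% of the chosen cells and are called the reduced set.

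Against all other barcodes of their libraries, which is the contrast of the rule itself and therefore a description, the mesodermal regulators outside the rule varied, with some above and some at or below the others. Poxm was at 54.4, 37.5, 18.6 and 25.6 CPM in the chosen cells and 8.48, 6.92, 4.24 and 7.60 CPM in the others. Six4, needed for mesoderm and muscle formation, was at 82.6, 135, 24.9 and 32.02 CPM against 20.6, 32.1, 12.9 and 9.23 CPM. The muscle identity gene slou was at 27.3, 8.90, 10.9 and 15.8 CPM against 4.11, 4.95, 2.75 and 6.87 CPM. Mef2, which the rule did not use, was at 255, 186, 127 and 162 CPM against 257, 251, 202 and 189 CPM and hence at or below the other barcodes. The gene sna, a repressor of the early mesoderm, was at 53.02, 30.9, 49.04 and 51.2 CPM against 71.1, 57.3, 44.4 and 61.7 CPM, and lmd was at 138, 111, 27.96 and 130.4 CPM against 110.2, 146, 46.8 and 122 CPM. Both sna and lmd were above the other barcodes in some libraries and below them in others. CG6910, srp and svp, the genes of the srp-rich cells, had some of the highest ratios among the listed genes outside the rule, the lowest of the 4 libraries being 10.0, 4.99 and 4.48.

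Between the stages, 13 of 14 mitosis genes and 5 of 14 mesoderm regulators were lower in the stage 13-16 chosen cells, and 12 of 18 sarcomere genes were higher. UMIs were summed over the chosen cells of each library and tested with edgeR's quasi-likelihood test and Benjamini-Hochberg adjustment, with a call at an adjusted p of 0.05. Of 7642 genes, 1051 (13.8%) were higher and 498 (6.52%) lower at stage 13-16. In the reduced set 1046 of 6721 genes (15.6%) were higher and 615 (9.15%) lower. Because sums join many cells, a changed level in each cell and a changed mix of cells cannot be told apart.

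Genes of mitosis fell most uniformly, with 13 of the 14 listed passing the test, all of them lower, against 6.52% of all genes, and with a median log2 fold change of -1.49 against -0.03 over all genes tested. The count was also 13 in the reduced set. CycB, the mitotic cyclin B, was at 359 and 292 CPM in the stage 10-12 replicates and 116 and 203 CPM in the stage 13-16 replicates. Its log2 fold change was -1.14 ± 0.24 (SE), with an adjusted p of 0.0209 by edgeR, and was called no longer without either stage 10-12 library (adjusted p 0.067 and 0.0505). The anaphase activator fzy was at 212 and 184 CPM in the stage 10-12 replicates and 34.6 and 98.4 CPM in the stage 13-16 replicates and BubR1, a spindle checkpoint kinase, at 43.7 and 41.9 CPM in the stage 10-12 replicates and 9.10 and 18.3 CPM in the stage 13-16 replicates. Both genes were among those called lower, which favours a lower pair at stage 13-16, and stage 13-16 replicate 1 was the lowest. The exception was stg, the phosphatase that starts mitosis, at 520.2 and 618 CPM in the stage 10-12 replicates and 474 and 1279 CPM in the stage 13-16 replicates, where the groups overlapped. Among the genes of DNA replication, 4 of 15 were lower, against 6.52% of all genes. The same direction was seen in all other barcodes, where fzy stood at 189, 198, 36.2 and 71.8 CPM.

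Of the 14 mesoderm regulators, 5 fell, against 6.52% of all genes, and the others did not pass the test. Six4 was at 82.6 and 135 CPM in the stage 10-12 replicates and 24.9 and 32.02 CPM in the stage 13-16 replicates, a log2 fold change of -2.05 ± 0.31 (SE) with an adjusted p of 0.0103 by edgeR. Poxm was at 54.4 and 37.5 CPM in the stage 10-12 replicates and 18.6 and 25.6 CPM in the stage 13-16 replicates, slp1, a forkhead gene of early mesoderm patterning, at 78.3 and 62.9 CPM in the stage 10-12 replicates and 14.9 and 43.4 CPM in the stage 13-16 replicates and nau at 31.9 and 26.2 CPM in the stage 10-12 replicates and 12.2 and 20.1 CPM in the stage 13-16 replicates. Mef2 was at 255 and 186 CPM in the stage 10-12 replicates and 127 and 162 CPM in the stage 13-16 replicates and its call was marginal, with an adjusted p of 0.0441 by edgeR and 0.166 in the reduced set. The call of Mef2 was also lost with a replicate block (adjusted p 0.054) and without either stage 10-12 library (0.41 and 0.117). Likewise nau was no longer called in the reduced set (adjusted p 0.0832 by edgeR) or without either stage 10-12 library (0.176 and 0.0923), and Poxm without stage 10-12 replicate 1 (0.0994). These falls depended on which cells were summed. In cells with a UMI of twi only 1 of the regulators passed, and with chosen cells that hold at least 2 markers of another type left out Six4 had a log2 fold change of -0.65 that did not pass (adjusted p 0.37 by edgeR).

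Most genes of the Notch pathway and of its E(spl) targets did not pass the test, and those that passed went in both directions. Dl was at 786 and 665 CPM in the stage 10-12 replicates and 182 and 259.8 CPM in the stage 13-16 replicates and fell by 1.82 on the log2 scale. E(spl)m5-HLH, a transcriptional repressor gene, was at 107 and 77.3 CPM in the stage 10-12 replicates and 13.8 and 27.2 CPM in the stage 13-16 replicates, and E(spl)m4-BFM, of the Bearded family, at 374 and 378 CPM in the stage 10-12 replicates and 122 and 114 CPM in the stage 13-16 replicates. These 3 genes were picked among the falling genes, so that lower stage 13-16 libraries follow from the choice. E(spl)m6-BFM went the other way, at 48.4 and 71.8 CPM in the stage 10-12 replicates and 267 and 224 CPM in the stage 13-16 replicates, with a log2 fold change of 1.95 ± 0.31 (SE) and an adjusted p of 0.0107 by edgeR. The receptor gene N was at 965, 858, 606 and 594 CPM and did not pass (adjusted p 0.0695 by edgeR). Over the E(spl) complex 1 gene of 11 rose and 2 fell, and over the other Notch pathway genes 1 of 11 rose, Ser, and 2 fell, Dl and neur, against 13.8% of all genes higher and 6.52% lower.

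Of the 4 genes listed for adult muscle precursors, ct rose with E(spl)m6-BFM and Ama fell. The level of ct was 134 and 111 CPM in the stage 10-12 replicates and 322 and 386 CPM in the stage 13-16 replicates, and in the reduced set 81.8, 60.2, 531 and 445 CPM, with log2 fold changes of 1.44 and 2.72. Ama, which encodes a secreted adhesion protein, was at 1641 and 1134 CPM in the stage 10-12 replicates and 549 and 845 CPM in the stage 13-16 replicates, and its call was lost without either stage 10-12 library (adjusted p 0.251 and 0.0828 by edgeR). InR, the insulin receptor gene, was at 321, 302, 307 and 350.2 CPM. E(spl)m6-BFM was high in the twi and E(spl)m6-BFM division by construction, and the share of that division was larger at stage 13-16. The level of ct was high there and about as high in the HLH54F-rich division, whose share was smaller at stage 13-16 (1.47% against 2.95%). Whether the levels of both genes changed within cells or the mix of cells did was not tested. The FGF ligand genes pyr, at 11.3, 7.60, 24.9 and 61.7 CPM, and ths, at 3.67, 1.05, 7.99 and 19.8 CPM, rose as well. The call of ths was lost in the reduced set (adjusted p 0.062 by edgeR), where its log2 fold change was 2.41 against 2.32 over all chosen cells, without stage 10-12 replicate 2 (0.0822) and without stage 13-16 replicate 2 (0.0804). The FGF gene bnl, known from the trachea, fell from 142 and 148 CPM to 60.4 and 67.01 CPM.

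Of 18 sarcomere genes tested 12 were higher and 2 lower, against 13.8% and 6.52% of all genes. Summed over the 20 listed genes the level was 1315, 969, 1232 and 1836 CPM, and overlapped between the stages. Mlc1, a myosin light chain gene, was at 3.56 and 1.05 CPM in the stage 10-12 replicates and 21.97 and 56.3 CPM in the stage 13-16 replicates. All other barcodes had Mlc1 at 26.8, 5.87, 193 and 266 CPM. Msp300, which encodes a giant spectrin repeat protein, was at 21.7 and 9.69 CPM in the stage 10-12 replicates and 61.5 and 136 CPM in the stage 13-16 replicates, and its level in the other barcodes was 75.5, 21.3, 214 and 290.3 CPM. The chosen cells were thus below the other barcodes of the same library in each case. Mhc, the muscle myosin heavy chain gene, was at 4.00, 0, 22.9 and 36.97 CPM and its rise was not called by DESeq2 (adjusted p 0.232). In the opposite direction sls, the gene of the titin-like spring protein, was at 350.3 and 219 CPM in the stage 10-12 replicates and 87.9 and 99.9 CPM in the stage 13-16 replicates and fell by 1.68 on the log2 scale, with an adjusted p of 0.0079 by edgeR and 0.168 in the reduced set.

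The strongest rises and falls over all genes included few regulators of muscle. The largest falls, among called genes with a mean of at least 50 CPM, were PH4alphaNE1, a prolyl hydroxylase gene, at 417 and 204 CPM in the stage 10-12 replicates and 0.444 and 0.825 CPM in the stage 13-16 replicates, the last 2 values being 2 and 5 UMIs. Next came jeb, which encodes the secreted ligand of the receptor Alk and is known from somatic mesoderm, at 275 and 223 CPM in the stage 10-12 replicates and 14.6 and 23.8 CPM in the stage 13-16 replicates, a log2 fold change of -3.79 ± 0.23 (SE) with an adjusted p of 0.00161 by edgeR. BobA and Brd, of the Bearded family, were at 237, 329, 22.9 and 47.9 CPM and 292, 319, 26.6 and 70.3 CPM. Notum, an inhibitor of Wingless, Ilp4, an insulin-like peptide gene, and gsb, a segmental Pax gene, were also among the 12 largest falls. Ilp4 was at 506 and 479.6 CPM in the stage 10-12 replicates and 114 and 166 CPM in the stage 13-16 replicates. The 5 genes given here with their values were picked from the largest called falls, so that lower stage 13-16 libraries follow from the choice.

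Among the 12 largest rises, the collagen IV genes Col4a1 and vkg and SPARC, which encodes a collagen binding protein, are known from hemocytes and fat body. Col4a1 was at 16.1 and 6.29 CPM in the stage 10-12 replicates and 180.2 and 412 CPM in the stage 13-16 replicates in the chosen cells, 25.96, 5.47, 128 and 164 CPM in all other barcodes and 2.18, 0, 81.01 and 64.98 CPM in the reduced set. Thus part of its level lay in the srp-rich cells with matrix genes. Plasmatocyte markers rose in 3 of 5 genes, epithelium markers in 3 of 5 and neuron markers in 2 of the 3 tested, against 13.8% of all genes, fne being at 47.6 and 35.1 CPM in the stage 10-12 replicates and 134 and 445 CPM in the stage 13-16 replicates in the chosen cells and 189.6, 125, 433 and 686 CPM in the others. Osi6 and nur were at 0.222, 0.524, 25.96 and 239 CPM and 18.6, 12.6, 345 and 509 CPM. Of 10 listed heat shock genes 7 could be tested and 4 were higher, against 13.8% of all genes, among them Hsp26 at 12.7, 4.45, 56.6 and 33.7 CPM. With the cells that held at least 2 neuron, epithelium or plasmatocyte markers left out, the stage test called 280 genes higher and 63 lower.

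To ask whether these stage changes were peculiar to the chosen cells, the change in them was compared with that in all other barcodes of the same libraries in a single model. Of 10937 genes, 22 (0.201%) rose more, or fell less, in the chosen cells and 7 (0.064%) the reverse, at an adjusted p of 0.05 by edgeR. At an unadjusted p of 0.05 the number was 1012 in both directions. DESeq2 called 94 and 47, and with cells of at least 3000 UMIs edgeR called 1 and 2. The gene with the largest reverse difference was sls, at 350.3, 219, 87.9 and 99.9 CPM in the chosen cells and 265, 197, 336 and 301 CPM in the others, a difference of -2.12 ± 0.17 (SE) with an adjusted p of 0.0038 by edgeR. For msi, which encodes an RNA-binding protein, the levels were 68.1, 66.8, 191 and 265 CPM against 188, 196, 185 and 281 CPM, so that it rose in the chosen cells and overlapped between stages in the rest. E(spl)m6-BFM, with a larger rise in the chosen cells by 0.50 on the log2 scale, did not pass (adjusted p 0.8 by edgeR). Of the 11 genes of the E(spl) complex, 10 had a difference above 0, against 5844 of all 10937 genes, with a median of 0.61. Of them 1 was called higher, against 0.201% of all genes. Other lists leaned to one side too, with 13 of 15 DNA replication genes (median 0.68) and 11 of 14 mitosis genes (median 0.12) above 0. Only 4 of 14 mesoderm regulators, 1 of 12 muscle attachment genes and 0 of 8 EGF receptor pathway genes were above 0. Sarcomere genes were split, with 10 of 20 above 0. In these other lists only sls was called.

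The chosen cells were then set beside cells with the gene set of fusion-competent myoblasts in the same libraries. These had a UMI of sns, at least 2 of lmd, Vrp1, sing and Kah, together 0.1% of their UMIs, and no bin or Mlp60A, and numbered 914, 317, 506 and 945. The genes of both gates were left out of the test. Since the chosen cells were required to lack sns, genes that go with sns in single cells were bound to be lower in them, and since they had to hold 3 of 5 mesodermal genes, genes that go with these were bound to be higher. Rises and falls of such genes are given as a description. Of 8225 genes, 1212 (14.7%) were higher in the chosen cells and 1253 (15.2%) lower. In the reduced set 849 of 8039 genes (10.6%) were higher and 1182 (14.7%) lower.

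Early mesodermal regulators were higher in the chosen cells, which the rule favours, and Mef2 was lower. Of 13 mesoderm regulators tested, 10 were higher and 1 lower, against 14.7% and 15.2% of all genes, with a median log2 fold change of 1.40. Poxm was at 54.4, 37.5, 18.6 and 25.6 CPM in the chosen cells and 5.68, 8.14, 2.71 and 4.35 CPM in the fusion-competent set, a log2 fold change of 2.57 ± 0.20 (SE). Six4 was at 10.5, 13.5, 15.2 and 5.41 CPM in the fusion-competent set, and nau at 31.9, 26.2, 12.2 and 20.1 CPM against 8.88, 3.57, 2.71 and 11.4 CPM. The heart and mesoderm gene tin was at 53.9, 18.6, 13.1 and 44.6 CPM against 20.5, 6.55, 2.04 and 6.28 CPM. These 4 genes were higher in the chosen cells in all 4 libraries, and in the reduced set by more, with log2 fold changes of 3.34, 3.13, 2.71 and 2.37. Mef2 was at 1214, 1054, 824 and 915 CPM in the fusion-competent set, and thus lower in the chosen cells in every library, by a log2 fold change of -2.62 ± 0.09 (SE).

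Regulators of founder identity were higher in 8 of 16 genes and lower in 2, against 14.7% and 15.2% of all genes. Kr, a zinc finger gene of founder cells, was at 94.7, 48.2, 59.9 and 84.8 CPM against 29.02, 21.05, 20.8 and 39.7 CPM, and Dr, a homeobox gene of several muscles, at 125, 119, 96.7 and 163 CPM against 22.6, 10.9, 13.1 and 25.8 CPM. One gene in the opposite direction was ab, at 108, 51.6, 145 and 239 CPM against 296, 202, 819 and 634 CPM. In the reduced set 11 were higher and 1 lower, against 10.6% and 14.7% of all genes. The adult muscle precursor gene E(spl)m6-BFM was at 34.5, 5.76, 38.2 and 28.3 CPM in the fusion-competent set, below the chosen cells of every library, and its log2 fold change was 2.24 ± 0.44 (SE). Both ct and InR were higher too, and Ama did not pass (adjusted p 0.0582 by edgeR). The call of InR was lost with chosen cells that hold markers of other types left out (adjusted p 0.378 by edgeR).

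The call on Notch targets rested on the cells included. Over all chosen cells 4 genes of the E(spl) complex were lower than in the fusion-competent set and 1 was higher, against 15.2% and 14.7% of all genes, but in the reduced set 4 were higher and 1 lower, against 10.6% and 14.7%. E(spl)mdelta-HLH was lower in both, at 77.5, 68.9, 59.2 and 41.9 CPM against 193, 195, 126 and 101 CPM. The founder receptor gene kirre, whose product binds that of sns, did not pass over all chosen cells (adjusted p 0.204 by edgeR) and was higher in the reduced set, at 312, 510.3, 446 and 313 CPM against 129, 143, 199.6 and 159.6 CPM. Dl behaved in the same way, with log2 fold changes of 0.43 (adjusted p 0.151 by edgeR) and 1.19 (adjusted p 0.00189). For the mitosis genes 1 was lower over all chosen cells, stg, and 11 of 14 were higher in the reduced set, against 10.6% of all genes.

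Genes of fusion and of the sarcomere were lower in the chosen cells, in the direction fixed by the absence of sns. Of 9 fusion genes outside the gates 6 were lower and 2 higher, against 15.2% and 14.7% of all genes, with blow, a signaling adaptor gene of fusion, at 25.9, 13.4, 11.3 and 33.7 CPM against 321, 217, 183 and 259.6 CPM. Swip-1, an actin regulator gene, was at 57.6, 57.4, 39.9 and 83.7 CPM against 399.8, 338, 218 and 429 CPM. Of 19 sarcomere genes 14 were lower, against 15.2% of all genes, among them Act57B, a muscle actin gene, at 226, 162, 291 and 399 CPM against 2653, 1800.0, 2098 and 3172 CPM. The largest falls also held sug, jhamt, so and NK7.1, which encode regulators or enzymes not on the lists. Of these, so was at 11.1, 7.33, 7.54 and 12.2 CPM against 121, 148, 133 and 115 CPM.

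The largest rises against the fusion-competent set were genes of the srp-rich cells, with bgm, Npc2g, CG16758 and srp in front. The level of srp was 284, 279, 254 and 298 CPM in the chosen cells and 16.5, 8.34, 13.8 and 26.4 CPM in the fusion-competent set, a log2 fold change of 4.00 ± 0.22 (SE), and 0.74 in the reduced set, from which srp-rich cells had been taken out. The glia gene repo, the heart gene Hand and HLH54F were higher over all chosen cells, with log2 fold changes of 2.62, 1.95 and 2.55, and at -0.67, -0.80 and -0.43 in the reduced set, from which the cells rich in these genes had been taken out by construction. The call of HLH54F was lost without stage 10-12 replicate 1 or without stage 13-16 replicate 2 (adjusted p 0.0538 and 0.0714 by edgeR). All 5 plasmatocyte markers were higher over all chosen cells, against 14.7% of all genes, and 1 of 5 in the reduced set, against 10.6%.

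Set beside differentiated muscle, the chosen cells had more Notch target RNA and more RNA of the cell cycle. The muscle set had a UMI of Mlp60A, at least 3 of Mhc, Act57B, Mlc2, Tm2, up and wupA, together 0.5% of UMIs, and no bin, and numbered 143, 6, 980 and 2632 cells, so that the values of stage 10-12 replicate 2 rest on 6 cells. Of 8216 genes, 1233 (15%) were higher in the chosen cells and 1256 (15.3%) lower. In the reduced set 891 of 7262 genes (12.3%) were higher and 1096 (15.1%) lower, and without stage 10-12 replicate 2 the calls were 1152 and 1318. As above, the rule fixed the direction for genes that go with Mlp60A or with its 5 mesodermal genes.

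All 11 genes of the E(spl) complex were higher in the chosen cells than in muscle, against 15% of all genes, with a median log2 fold change of 1.87, and all 11 were higher in the reduced set against 12.3%. E(spl)mbeta-HLH was at 206, 155, 989.9 and 290.0 CPM against 33.6, 25.2, 149.7 and 68.5 CPM, highest in stage 13-16 replicate 1. E(spl)m8-HLH was at 146, 144, 153 and 59.4 CPM against 27.4, 25.2, 18.1 and 21.1 CPM, a log2 fold change of 2.10 ± 0.28 (SE) with an adjusted p of 0.000709 by edgeR. The receptor gene N was at 965, 858, 606 and 594 CPM against 276, 50.3, 147 and 236 CPM, and spdo, which encodes a regulator of Notch at asymmetric divisions, at 81.1, 37.2, 35.5 and 51.7 CPM against 9.72, 0, 5.83 and 16.5 CPM. In each of these genes all 4 libraries were higher in the chosen cells. Of the 11 other Notch pathway genes, 9 were higher, against 15% of all genes. The remaining call was neur, lower with a log2 fold change of -0.90, which was -0.22 and not called in the reduced set (adjusted p 0.426 by edgeR). For Dl the call was lost without either stage 10-12 library (adjusted p 0.058 and 0.063 by edgeR).

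Of 14 mitosis genes, 13 were higher than in muscle, against 15% of all genes, with a median log2 fold change of 1.43, and the count was 13 in the reduced set. CycA was at 291, 235, 92.98 and 168 CPM against 66.2, 50.3, 24.3 and 69.9 CPM and CycB at 359, 292, 116 and 203 CPM against 152, 113, 33.4 and 82.6 CPM. Both cyclins were higher in the chosen cells of every library. Of 15 DNA replication genes, 5 were higher, against 15% of all genes. Beside all other barcodes the picture differed. Summed mitosis genes were at 2549, 2354, 1011 and 2339 CPM in the chosen cells and 2711, 2821, 1043 and 1936 CPM in the others. Summed DNA replication genes were lower in every library, at 590, 474, 231 and 394 CPM against 1256, 1259, 405 and 670 CPM. All 4 genes listed for adult muscle precursors were higher, E(spl)m6-BFM at 15.02, 0, 26.04 and 41.6 CPM and Ama at 321, 138, 106 and 205 CPM in muscle. The call of ct was lost in the reduced set, with an adjusted p of 0.0854 by edgeR. Its log2 fold change there was 0.99 against 0.92 over all chosen cells. The call of ct was also lost without stage 13-16 replicate 1, with an adjusted p of 0.125 by edgeR. With chosen cells that hold markers of other types left out, neither ct nor InR was called (adjusted p 0.32 and 0.217 by edgeR).

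Of 14 mesoderm regulators 5 were higher and 2 lower than in muscle, against 15% and 15.3% of all genes. Both Six4 and Poxm, at 4.42, 0, 2.46 and 4.11 CPM and 0.883, 0, 1.18 and 8.35 CPM in muscle, were higher in the chosen cells, and tin, at 7.95, 0, 1.27 and 2.07 CPM in muscle, had a log2 fold change of 3.50 ± 0.34 (SE). The lower pair was Mef2, at 629, 352, 386 and 501 CPM in muscle, and lmd, at 138, 111, 27.96 and 130.4 CPM in the chosen cells against 189.9, 239, 130.0 and 314 CPM. The call of lmd was lost in the reduced set, with an adjusted p of 0.277 by edgeR. Of 16 founder identity regulators 4 were higher and 2 lower than in muscle, with a median log2 fold change of -0.07. Summed over the founder list, the level was 898, 721, 650 and 1151 CPM in the chosen cells. It was higher in every library in muscle, at 988, 1120, 1153 and 1747 CPM. All other barcodes were also above the chosen cells, at 1295, 973, 1245 and 1504 CPM. In the EGF receptor pathway 3 of 7 genes were higher, against 15% of all genes, Egfr being at 155, 172, 96.1 and 133 CPM against 45.05, 25.2, 35.1 and 60.2 CPM. The secreted ligand gene jeb and the nuclear receptor gene svp were among the 12 largest rises, jeb at 3.53, 25.2, 1.82 and 3.48 CPM in muscle.

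The 13 sarcomere genes outside the gates were all lower than in muscle, with a median log2 fold change of -4.15, in the direction fixed by the rule. TpnC73F, a troponin C gene, was at 5.67, 2.10, 28.8 and 49.8 CPM against 1656, 667, 2154 and 2147 CPM. Muscle attachment genes were lower than in muscle in 5 of 12 cases, against 15.3% of all genes, Ilk, an adaptor of integrin adhesion, being at 38.8, 34.3, 39.7 and 51.8 CPM against 153, 201, 129 and 141 CPM. Of the 13 fusion genes tested 7 were lower, against 15.3% of all genes, blow among them at 244, 264, 120.4 and 159.8 CPM in muscle.

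**Figure D4:**
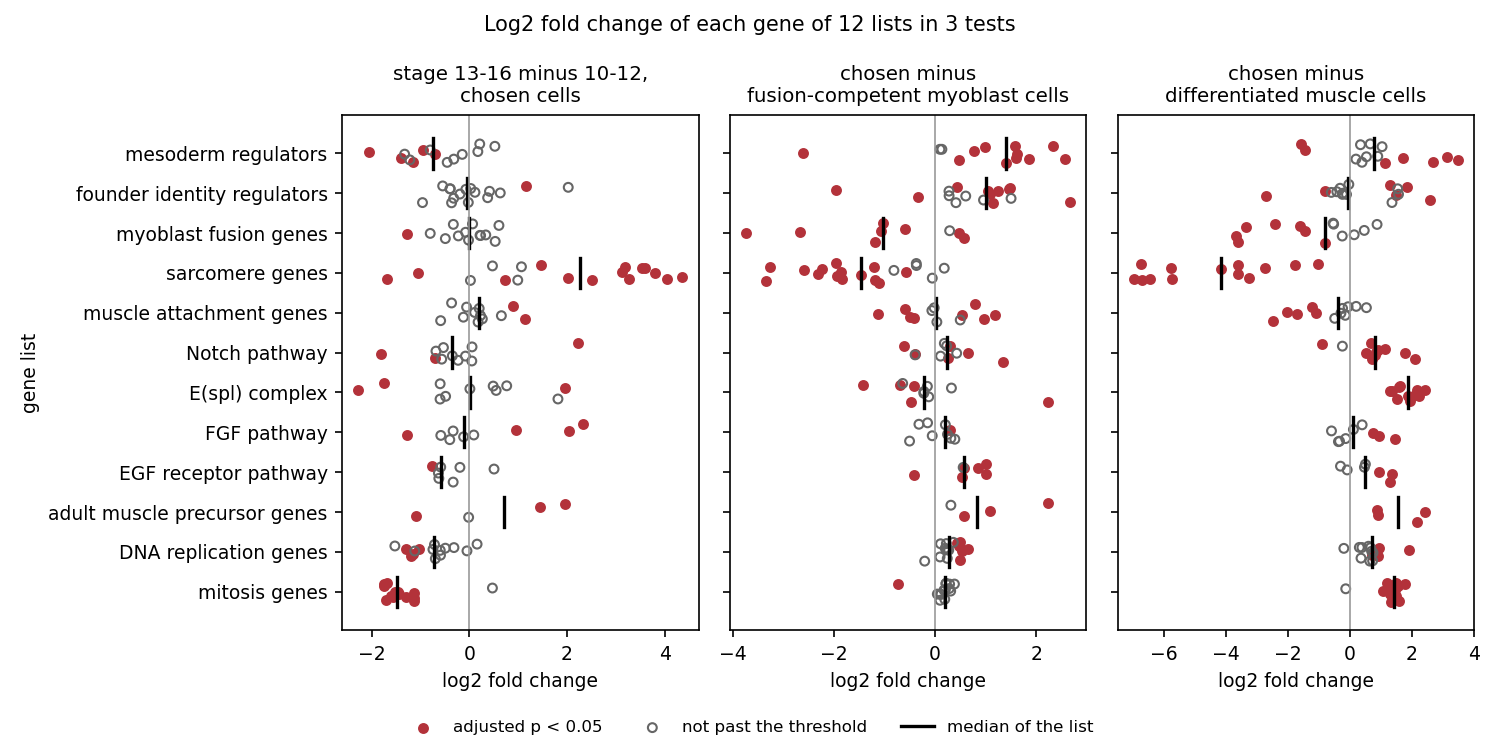
Log2 fold change (x axis) of each tested gene of 12 lists (rows) in the stage test, the test against the fusion-competent set and the test against the muscle set; filled red points passed an adjusted p of 0.05 by edgeR, open points did not, and black bars are list medians. Mitosis genes lie left of 0 in the stage test (median -1.49) and right of 0 against muscle (1.43), and all 11 E(spl) genes lie right of 0 against muscle.

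**Figure D5:**
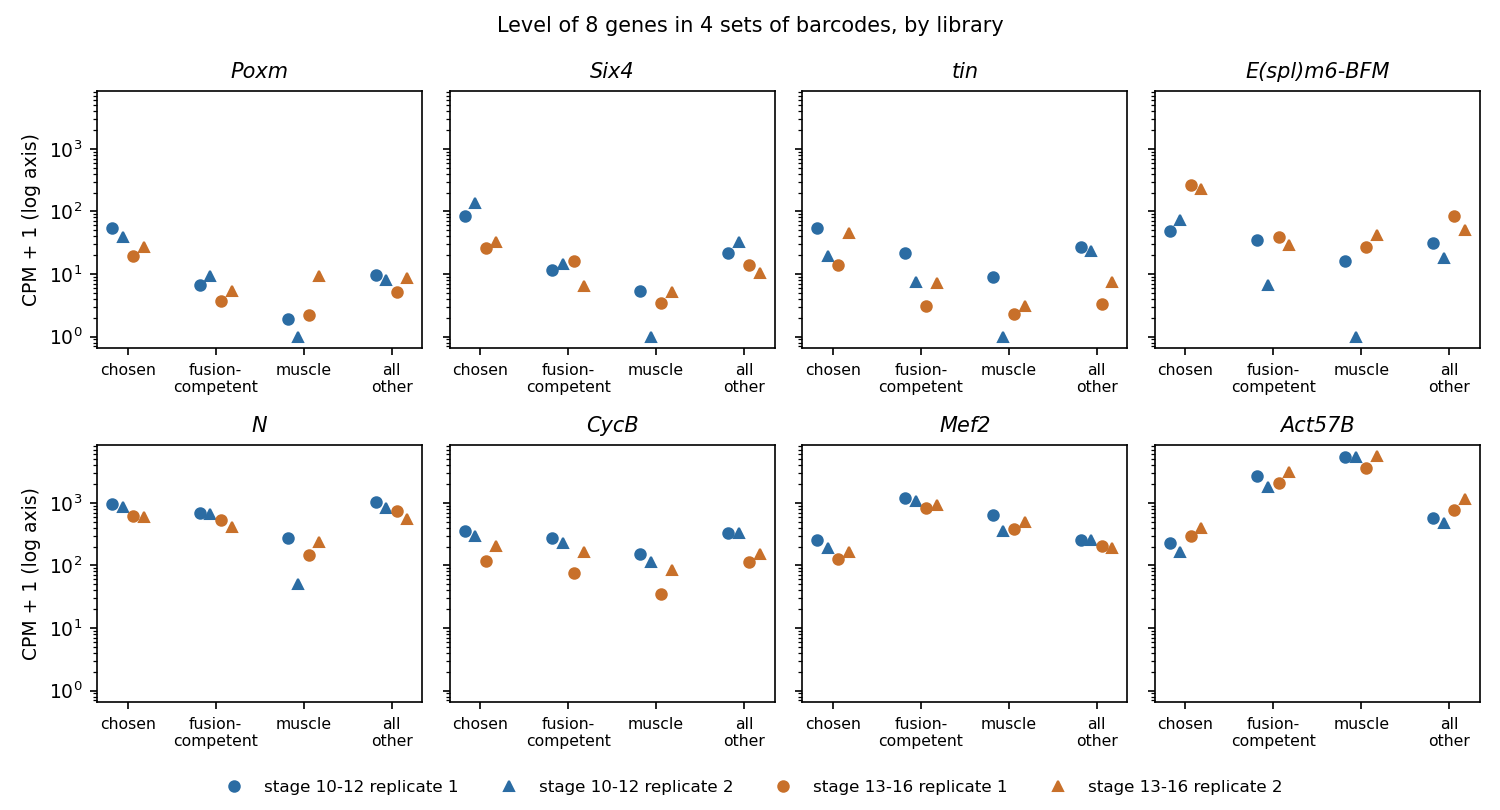
Level of 8 genes (y axes, CPM + 1 on a log scale) in the chosen cells, the fusion-competent set, the muscle set and all other barcodes (x axes); each point is 1 of the 4 libraries, blue for stage 10-12 and orange for stage 13-16, with circles for replicate 1 and triangles for replicate 2. Poxm and Six4 are highest in the chosen cells of every library, Mef2 is at 127 to 255 CPM there against 824 to 1214 CPM in the fusion-competent set, and Act57B is at 162 to 399 CPM there, below both muscle sets.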

How the data were processed

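The 4 libraries were made with droplet single-cell RNA chemistry from dissociated whole embryos. The authors deposited UMI counts per gene and barcode, made per the submitters' processing notes with Cell Ranger 6.1.2. The deposited counts were not normalized, and libraries were not pooled. Symbols were found for 17800 of 17875 gene identifiers, and the gene hbs was not matched. The chosen cells, the gene lists and the tests were set with earlier results of these data known. Total UMIs per library ranged from 71622535 to 394684653, and those of the chosen cells from 3818121 to 8995861.

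UMI counts of each set of cells were summed per library and tested with edgeR 4.0.16 in R 4.3.3. The settings were TMM scaling, filterByExpr, the quasi-likelihood test and Benjamini-Hochberg adjustment over all genes tested. The fits were also run on simulated counts drawn from a single mean profile with a common dispersion. Those counts lacked the library and cell-type differences of these data, so that the run cannot vouch for the calls. In the stage test the 2 libraries of each stage were compared without a block. Comparisons within libraries had the library as a term. The 8 genes of the rule and the genes of the gates were left out. CPM is a gene's UMIs per 1000000 UMIs of the set. Alternatives were DESeq2 1.42.0, its size factors in edgeR, no filter on low counts, thinning to 1500 UMIs, 3000 UMIs as the minimum, 4 markers, 10% mitochondrial UMIs, cells with markers of other types left out, single libraries left out and a replicate block. The reduced set, cells with a UMI of twi and crossed replicate numbers were added after seeing the data. Genes named are those of the rule and of the lists, and in each test the 12 largest rises and falls among called genes with a mean of at least 50 CPM. Genes named with the divisions and in no test were chosen after their values were seen. Cells were counted with Python 3.11.15, numpy 2.4.6, scipy 1.17.1 and pandas 2.3.3. Without cell annotation in the files used here, names of cells rest on the marker rules given, and no doublet caller was run.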

Additional observations from a re-analysis of the deposited data

Results flagged for a closer look

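The stage change of 14 named genes differed between the chosen cells and all other barcodes of the same libraries, by the test of that difference in edgeR (adjusted p from 0.0038 to 0.0494, 2 libraries per stage). The differences, as log2 fold changes in the chosen cells minus those in the rest, were 2.98 for CG31777, 1.78 for nur, 1.72 for Mipp1, 1.54 for Thor, 1.46 for CG42394, 1.41 for msi and 1.39 for side. They were 1.34 for Lac, 1.31 for Pvf3, 1.25 for Gmap, 1.17 for DNaseII and 1.16 for Ance. In the reverse direction they were -2.12 for sls and -1.55 for Ndg. Thor, a translation inhibitor gene, was at 24.9, 23.05, 72.8 and 131 CPM in the chosen cells and 88.6, 69.2, 82.1 and 135 CPM in the others, so that it lay below the other barcodes at stage 10-12 and near them at stage 13-16. Ndg, the gene of the basement membrane protein nidogen, was at 109, 56.3, 61.7 and 109 CPM against 27.6, 21.3, 52.8 and 90.8 CPM. Of these genes Mipp1, msi and Lac were also among those that set the Hand-rich or the repo-rich cells apart from the other chosen cells. Likewise side was among those of the twi and E(spl)m6-BFM division and Ndg among those of the twi division. With the HLH54F-, repo-, Hand- and srp-rich cells left out the test called 437 genes with a larger and 148 with a smaller stage change in the chosen cells. With a minimum of 3000 UMIs the edgeR test called 3 genes in all.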

How the results depend on the processing

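Counts of called genes moved with the cells summed. For the stage test (1051 higher and 498 lower) they were 532 and 251 after thinning to 1500 UMIs, 689 and 288 with at least 4 markers, and 280 and 63 with cells holding markers of other types left out, and without a filter on low counts 1074 were lower. Leaving out single libraries gave 567 to 1461 higher and 184 to 951 lower, with fewest higher and fewest lower calls without stage 10-12 replicate 2 and most without stage 13-16 replicate 1. A replicate block, with numbers as the labels give them, gave 1149 and 541, and crossed numbers 1257 and 756; the labels do not say that a number marks a shared collection, and replicate differences correlated at r = -0.11 over 7642 genes between the stages. Against the fusion-competent set (1212 and 1253) they were 566 and 654 thinned, 651 and 807 without cells holding other markers, 705 higher in cells with a UMI of twi, and 799 to 1300 lower without single libraries. Against muscle (1233 and 1256) they were 636 and 629 thinned, 764 higher without cells holding other markers, and 631 to 1271 and 831 to 1318 without single libraries (631 without stage 13-16 replicate 1, 831 without stage 13-16 replicate 2).

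The difference of stage changes (22 and 7) was the least stable count. It was 42 and 21 with DESeq2's size factors, 302 and 203 without a filter, 94 and 47 with DESeq2, 45 and 14 thinned, 1 and 2 at 3000 UMIs, and 302 and 115 with 4 markers. It was 95 and 67 without cells holding other markers, 437 and 148 in the reduced set, 361 and 242 in cells with a UMI of twi, and 107 to 399 and 72 to 188 without single libraries. The cause of these changes was not tested. The share of chosen cells (3.02% and 1.34%) was 1.41% and 0.764% thinned, 4.92% and 1.87% at 3000 UMIs, and 1.17% and 0.342% with 4 markers. At stage 13-16 it was 1.67% with at most 10% mitochondrial UMIs. Without single libraries it ranged from 2.64% to 3.41% and from 1.26% to 1.42%.

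Signs changed in a few named genes. In the stage test Mef2 was at 0.0181 and nau at 0.268 in cells with a UMI of twi, nau at 0.0668 thinned, stg from -0.168 to 0.906 without single libraries (lowest without stage 13-16 replicate 2), and srp at 0.29 with 4 markers and 0.73 in the reduced set. Against the fusion-competent set HLH54F was at -0.43, Hand at -0.80 and repo at -0.67 in the reduced set, which lacks the cells rich in these genes by construction. The stage difference of E(spl)m6-BFM was from -0.128 to 1.11 without single libraries, lowest without stage 10-12 replicate 1.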
